A study of Macaca mulatta with 12 samples.

Results

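The genes described here are those of the synaptic vesicle and SNARE machinery, the proteins that dock vesicles at a membrane and fuse them with it. They were chosen by symbol, from the gene table of the array: syntaxins, SNAP proteins, VAMPs, syntaxin-binding proteins, complexins, synaptotagmins, SV2 and Rab3 proteins, UNC13 and RIMS proteins, synapsins, synaptogyrins, and NSF with its SNAP adaptors. The rule found 47 of the 12993 genes with a single symbol, on 76 of 52766 probe sets, a probe set being a group of short probes meant for one transcript. The rule itself uses symbols and no measured value, though the gene set was picked with earlier results of these data known. Of these, 40 genes on 59 probe sets were bright enough to be tested.

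RNA came from a dorsal raphe block, tissue around a midbrain nucleus rich in serotonin neurons, of 12 female rhesus monkeys. Each Affymetrix rhesus array held RNA of 1 animal, and there were 3 animals in each of 4 groups. All animals carried Silastic capsules under the skin for 1 month, holding placebo, estrogen, progesterone, or estrogen with progesterone. The placebo titles include OVX, which usually means ovariectomized. The labels give neither ages nor doses and do not say whether the animals of the other groups were ovariectomized. The progesterone arrays carry EP in their titles but P in their descriptions, and were taken as progesterone alone. A tissue block mixes neurons, glia and vessels, so fewer cells of a type and less RNA per cell cannot be told apart in any result given here.

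Release of transmitter begins when a syntaxin and a SNAP protein of the cell membrane zip together with a VAMP on the vesicle. Munc18 proteins, which the symbols list as STXBP, guide the syntaxin, UNC13 and RIMS proteins prime the vesicle at the active zone, and Rab3 proteins tether it. Complexin clamps the assembled complex and synaptotagmins sense the calcium that triggers fusion, while SV2 proteins, synapsins and synaptogyrins belong to the vesicle itself. Alpha-SNAP, the product of NAPA, and the ATPase NSF take the spent complexes apart. Other syntaxins and VAMPs serve the Golgi, endosomes and lysosomes of every cell type, so not all members are neuronal.

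The tissue and the label were checked against defining genes. The 4 genes proposed as marks of this machinery, CPLX2, STX1A, SV2B and RAB3A, were all bright enough to test. Of 16 general neuron markers, 11 had a probe set under their symbol and 10 were bright enough. Of 13 serotonin neuron markers, 9 had a probe set and 7 were bright enough, among them TPH2, SLC18A2 and FEV. Other core genes of release, among them SNAP25, NSF, NAPB, SYP, SYN1, UNC13A and RIMS1, were not analysed here. Values are log2 intensities after quantile normalization. A level can be compared between arrays for the same probe set but not between probe sets.

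None of the 59 probe sets passed limma's test in any comparison, at a Benjamini-Hochberg adjusted p of 0.05 over all 26383 probe sets tested. Of all probe sets tested, 0% passed in estrogen against placebo and 0% in estrogen plus progesterone against placebo. The share was 0.133% in progesterone against placebo, 0% in estrogen plus progesterone against estrogen, 0.0834% in estrogen plus progesterone against progesterone, 0% for the interaction and 0.0758% for the F test over the 4 groups. At an unadjusted p under 0.05 the members numbered 2 in estrogen against placebo (background 2.65%), 2 in the combined treatment against placebo (3.85%) and 3 in progesterone against placebo (9.87%). They numbered 1 in the combined treatment against estrogen (2.98%), 7 in the combined treatment against progesterone (11.4%), 4 for the interaction (6.4%) and 5 for the F test (7.54%). As shares of the 59, the first 6 counts come to 3.39%, 3.39%, 5.08%, 1.69%, 11.9% and 6.78%. These lay near or below the background in every comparison. With 3 animals a group, the 95% confidence interval of a member's log2 difference from placebo extended a median of 0.47 to each side, from 0.26 for the least variable probe set to 1.67 for the most variable.

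**Figure D1:**
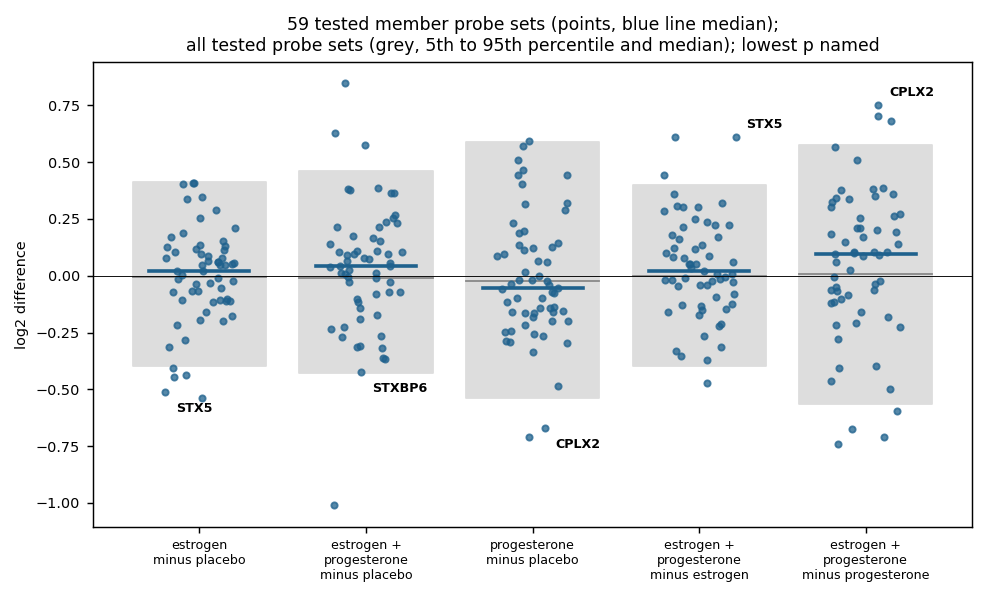
Log2 differences (vertical axis) of the 59 tested member probe sets in 5 comparisons (horizontal axis), with the member median as a blue line; the grey band spans the 5th to 95th percentile of all 26383 probe sets and the grey line their median. Between 3 and 7 members lay outside the band in a comparison, and the member of lowest p is named: STX5, STXBP6, CPLX2, STX5 and CPLX2 from left to right.

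On the brightest probe set of each gene, the medians of the 40 members lay close to those of all 9305 genes tested. In estrogen against placebo 21 members were higher and 19 lower, with a median log2 difference of 0.012 beside -0.0052 for all genes. In estrogen plus progesterone against placebo 25 were higher and 15 lower (median 0.050 beside -0.014). In progesterone against placebo 13 were higher and 27, or 67.5%, were lower (median -0.086), where 56.2% of all genes were lower (median -0.041). Those 3 comparisons use the same placebo arrays. In estrogen plus progesterone against estrogen 21 were higher and 19 lower (median 0.0074 beside -0.0049). In estrogen plus progesterone against progesterone 28, or 70.0%, were higher and 12 lower (median 0.105), where 54.2% of all genes were higher (median 0.028). With arrays aligned on their medians in place of quantile normalization, the split became 7 higher and 33 lower in progesterone against placebo (median -0.19, beside -0.15 for all genes), 16 and 24 in both hormones against estrogen, and 31 and 9 in both hormones against progesterone. It was then 30 and 10 for the interaction, from 25 and 15. Summed over the 40 genes, normalized intensity was 27060 to 29520 in the progesterone arrays, 29210 to 31370 under placebo, 29700 to 31900 under estrogen and 29990 to 31510 under both hormones. On this sum, which the brightest probe sets weigh most, the progesterone arrays lay below every array of both estrogen groups and overlapped with placebo. On the mean of the 40 log2 values, progesterone and estrogen overlapped too. The first progesterone array (8.784) lay above the first estrogen array (8.749) there. The second progesterone array moved the progesterone median most: without it the value was -0.024, and without the first it was -0.13.

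**Figure D2:**
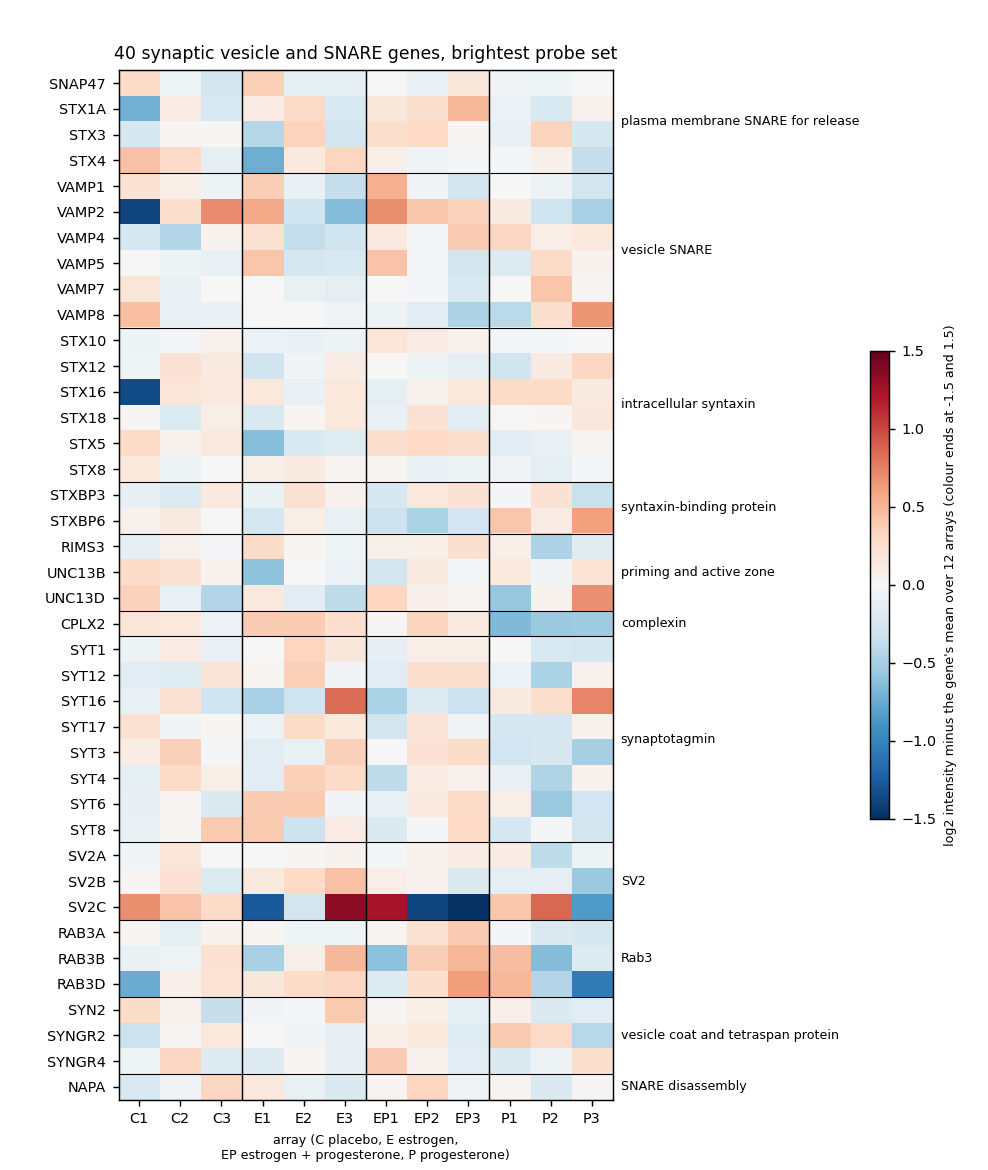
Log2 intensity of the 40 tested genes (rows, by role) on the 12 arrays (columns), as the difference from each gene's own mean over the arrays; red is higher and blue lower. CPLX2 is low in all 3 progesterone arrays, SV2C varies most, with a range of 2.81, and VAMP2 and STX16 are lowest in the first placebo array.

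Complexin came nearest to a difference between groups. CPLX2, the one complexin on the array under the rule, codes for complexin 2, the small protein that clamps the SNARE complex before calcium arrives. On its brighter probe set, MmugDNA.4679.1.S1_at, the log2 intensity was 10.64, 10.62 and 10.37 in the placebo animals and 10.84, 10.84 and 10.71 under estrogen. It was 10.47, 10.80 and 10.60 under both hormones and 9.79, 9.90 and 9.93 under progesterone. The progesterone arrays thus lay below the 9 other arrays, while the other groups lay between 10.37 and 10.84. The progesterone arrays were lowest of all in this way for 2.07% of all probe sets tested. The difference from placebo was -0.67 ± 0.14 (SE, n = 3 per group), a level 1.59 times lower, with a 95% confidence interval from -0.98 to -0.36 and a limma adjusted p of 0.130. Against estrogen plus progesterone the gap was larger, 0.75 ± 0.14 higher with both hormones (interval 0.44 to 1.06, adjusted p = 0.0939). For any difference among the 4 groups the limma F test gave CPLX2 the lowest p of the members, with an adjusted p of 0.133, and the interaction of the hormones was 0.50 ± 0.20 (adjusted p = 0.766).

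A second CPLX2 probe set, MmuSTS.756.1.S1_at, showed the same direction with more spread. Its values were 7.32, 8.05 and 8.34 under placebo, 8.09, 7.92 and 7.85 under estrogen, 8.17, 7.76 and 7.70 under both hormones, and 6.88, 7.45 and 7.25 under progesterone. The first placebo array fell among the progesterone arrays here, so those groups overlapped, whereas all arrays of both estrogen groups lay above the progesterone arrays. The difference from placebo was -0.71 ± 0.25 (SE, limma adjusted p = 0.397) and that of both hormones from progesterone 0.68 ± 0.25 (adjusted p = 0.342). For the brighter probe set the difference from placebo stayed between -0.76 and -0.62 when any 1 array was left out, and the adjusted p stayed above 0.05 in every setting tried, the lowest being 0.0631 when the filter stood at the 75th percentile. For both hormones against progesterone the lowest was 0.0549 under that same filter.

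**Figure D3:**
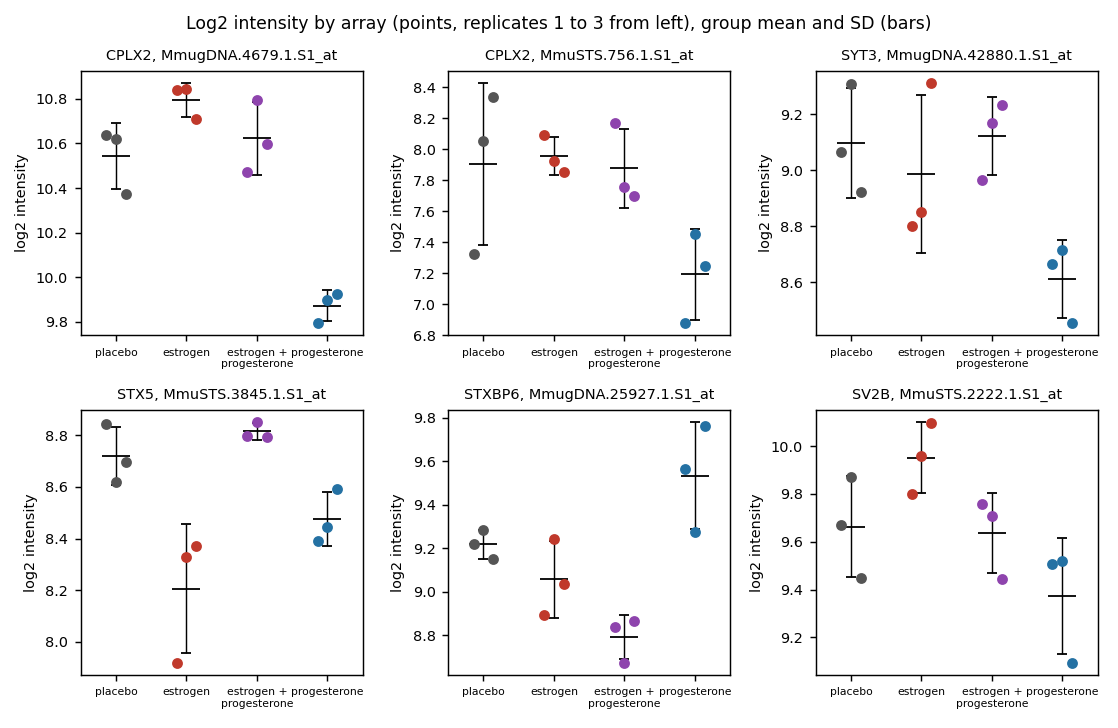
Log2 intensity (vertical axes) of CPLX2 on its 2 probe sets, SYT3, STX5, STXBP6 and SV2B in the 4 groups (horizontal axes); points are arrays, replicates 1 to 3 from left to right, and bars give the group mean and SD. CPLX2 and SYT3 are lowest under progesterone, STX5 is lower in both single-hormone groups than in the other groups, and STXBP6 is lowest under both hormones.

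Synaptotagmins are the calcium sensors and membrane tethers of the vesicle, and 8 of the 11 on the array were bright enough to test. Under progesterone 7 of the 8 lay below placebo on the group mean (median log2 difference -0.18, from -0.49 for SYT3 to 0.44 for SYT16), and 0 passed the test. SYT3, a synaptotagmin with high calcium affinity, read 9.07, 9.31 and 8.92 under placebo and 8.80, 8.85 and 9.31 under estrogen. It read 8.97, 9.17 and 9.23 under both hormones and 8.66, 8.72 and 8.45 under progesterone. Like CPLX2, it was lowest in the 3 progesterone arrays, with no overlap with any other group. Its difference from placebo was -0.49 ± 0.18 (SE, adjusted p = 0.404), that of both hormones from progesterone 0.51 ± 0.18 (adjusted p = 0.316), and its interaction 0.62 ± 0.25 (adjusted p = 0.761), all from limma.

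SYT16, a synaptotagmin relative that lacks the usual calcium-binding residues, went the other way. It read 6.92, 7.04 and 7.51 under progesterone and 6.31, 6.58 and 6.45 under both hormones, groups that did not overlap and differed by -0.71 ± 0.31 (SE, limma adjusted p = 0.412). Under placebo it read 6.67, 6.995 and 6.48, and under estrogen 6.30, 6.48 and 7.62, so the third estrogen array alone exceeded all progesterone arrays. Its interaction was -0.80 ± 0.44 (adjusted p = 0.798), and -0.39 without that estrogen array. The 2 probe sets of SYT17 disagreed: the dimmer lay above every placebo array under progesterone (8.07, 8.25 and 8.17 against 7.44, 7.80 and 7.93; difference 0.44 ± 0.21, adjusted p = 0.526; interaction -0.47 ± 0.30, adjusted p = 0.828), while the brighter differed by -0.22. SYT4, a vesicle synaptotagmin abundant in neurons, differed from placebo by 0.08, -0.14 and -0.25 under estrogen, both hormones and progesterone. SYT6, SYT8 and SYT12 differed by 0.35, -0.04 and 0.17 under estrogen, by 0.21, -0.08 and 0.15 under both hormones, and by -0.14, -0.29 and -0.12 under progesterone.

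SYT1, the fast calcium sensor of transmitter release, had 4 tested probe sets that did not behave alike across animals. The brightest, MmugDNA.40274.1.S1_s_at, lay between 11.51 and 12.10 on all 12 arrays and differed from placebo by 0.19, 0.04 and -0.14 (SE 0.15). The estrogen value was 0.11 without the second estrogen array, and the progesterone value was -0.067 without the second placebo array and -0.22 without the first progesterone array. A probe set of the same design number, MmugDNA.40274.1.S1_at, read 10.49, 10.74 and 10.53 under both hormones, below the 10.89, 11.05 and 10.76 of placebo, a difference of -0.31 ± 0.21 (limma adjusted p = 0.999). The others, MmuSTS.3945.1.S1_at and the dimmest probe set, split the arrays within groups instead of the treatments. On the first of these the opening arrays of placebo, estrogen and estrogen plus progesterone read 10.20, 10.66 and 10.81, whereas values elsewhere ran from 11.71 to 12.45. For the dimmest probe set the same 3 arrays read 7.71, 7.79 and 7.74 and the second progesterone array 7.96, while the remaining 8 ran from 9.20 to 10.003. Those 3 arrays also stood apart on the first principal component of the tested probe sets (-51.6, -44.9 and -44.0, the others between -1.64 and 29.0), while the progesterone arrays stood apart on the second (-14.1, -46.3 and -54.5, the others between 0.50 and 20.4). These probe sets of 1 gene therefore gave differences from placebo under progesterone of -0.14, -0.20, 0.51 and -0.17 in the order named.

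**Figure D4:**
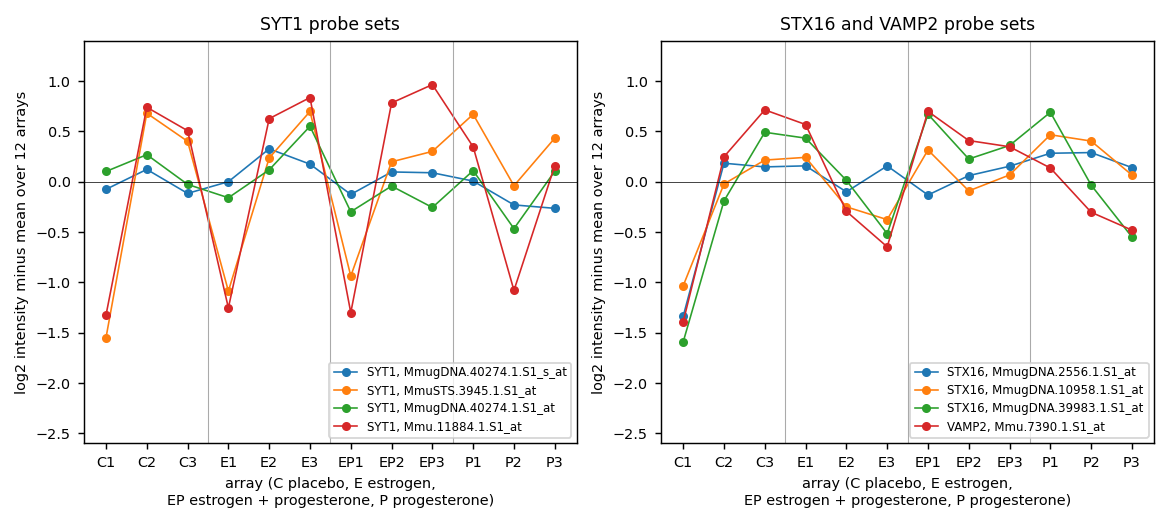
Log2 intensity, as the difference from each probe set's mean (vertical axes), on the 12 arrays (horizontal axes) for 4 probe sets of SYT1 (left) and for 3 of STX16 with 1 of VAMP2 (right). Of the SYT1 probe sets, 2 drop in the first placebo, estrogen and combined arrays and 2 do not; the STX16 and VAMP2 probe sets are all lowest in the first placebo array.

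The SNAREs of the cell membrane include STX1A, the syntaxin of neuronal release. STX1A read 6.03, 6.87 and 6.51 under placebo, 6.87, 7.03 and 6.51 under estrogen, 6.91, 6.98 and 7.23 under both hormones, and 6.65, 6.51 and 6.80 under progesterone. The combined-treatment arrays lay above every placebo array, by 0.57 ± 0.22 (SE, limma adjusted p = 0.999), and the low first placebo array carried part of this: without it the difference was 0.35. STX3, a syntaxin of apical and dendritic membranes, was above placebo in the same way (8.01, 8.03 and 7.77 against 7.49, 7.76 and 7.75; 0.27 ± 0.22, adjusted p = 0.999). In that comparison 8 member probe sets did not overlap between the groups, beside 10.5% of all probe sets: 5 were higher (background 4.68%) and 3 lower (5.84%). STX4, a syntaxin of regulated secretion in many cell types, differed from placebo by -0.28, -0.19 and -0.30 under estrogen, both hormones and progesterone, and SNAP47 by 0.05, 0.04 and -0.02. Dim probe sets were all that the array held for STX2 and STX11.

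Among the vesicle SNAREs, VAMP2, the synaptobrevin of most synapses, varied widely between animals: 6.74, 8.38 and 8.85 under placebo, 8.70, 7.84 and 7.49 under estrogen, 8.83, 8.55 and 8.48 under both hormones, and 8.27, 7.83 and 7.66 under progesterone. Its differences from placebo of 0.02, 0.63 and -0.07 (SE 0.46) moved either way with single placebo arrays. Without the first placebo array they were -0.60, 0.0041 and -0.70, and without the third 0.45, 1.06 and 0.36. VAMP1, which replaces VAMP2 at many brainstem and spinal synapses, ranged from 9.80 to 10.69 and differed from placebo by -0.11, -0.0057 and -0.20. VAMP4, a SNARE of the trans-Golgi network and endosomes, had 3 tested probe sets of mixed direction. Its brightest was higher under progesterone (8.62, 8.42 and 8.47) than under placebo (8.05, 7.87 and 8.37), by 0.41 ± 0.20 (limma adjusted p = 0.539). The s_at probe set was lower under both hormones (7.77, 7.94 and 8.09) than under placebo (8.44, 8.36 and 8.10), by -0.37 ± 0.25 (adjusted p = 0.999), and the dimmest lower under estrogen (7.33, 7.19 and 7.35 against 7.56, 7.41 and 7.85; -0.31 ± 0.35, adjusted p = 0.9997, and -0.19 without the third placebo array). VAMP8, an endosomal and secretory granule SNARE, read 7.78, 7.69 and 7.39 under both hormones, just below the 7.85, 7.84 and 7.80 of estrogen (-0.21 ± 0.25, adjusted p = 0.9999, and -0.096 without the third combined-treatment array). VAMP5 and VAMP7 stayed within 0.70 and 0.65 over the 12 arrays.

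The intracellular syntaxins held the member of lowest p in 2 comparisons between groups and in the interaction, STX5, the Golgi SNARE of transport from the endoplasmic reticulum. It read 8.84, 8.62 and 8.70 under placebo, 7.92, 8.33 and 8.37 under estrogen, 8.39, 8.44 and 8.59 under progesterone, and 8.80, 8.85 and 8.79 under both hormones. Each hormone alone thus lay below every placebo array, the estrogen arrays were the lowest of the 12 as for 0.28% of all probe sets, and the combined group lay above every array of either hormone alone. Estrogen differed from placebo by -0.51 ± 0.15 (SE, interval -0.85 to -0.18, limma adjusted p = 0.9997), and -0.37 without the first estrogen array. Progesterone differed from placebo by -0.24 ± 0.15 (adjusted p = 0.659). Both hormones exceeded estrogen by 0.61 ± 0.15 (adjusted p = 0.9999) and progesterone by 0.34 ± 0.15 (adjusted p = 0.436). The interaction, which asks whether progesterone acts differently with and without estrogen, was 0.85 ± 0.22 and had the lowest p of the members but did not pass (adjusted p = 0.678).

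STX10, a syntaxin of endosome-to-Golgi traffic, was the least variable tested member, with all 12 arrays within 0.28. The combined-treatment arrays at 8.04, 7.98 and 7.93 lay above the 9 others, which 0.455% of all probe sets did, and exceeded estrogen by 0.21 ± 0.12 (limma adjusted p = 0.9999). STX16, a trans-Golgi syntaxin, was low in the first placebo array on all 3 of its probe sets, at 7.72, 7.88 and 5.97, where the other 11 arrays read at least 8.92, 8.54 and 7.01. Its differences from placebo on the brightest were 0.41, 0.36 and 0.57 (SE 0.33) under estrogen, both hormones and progesterone, and rested on that array: without it they were -0.094, -0.14 and 0.072. STX8, STX12 and STX18, syntaxins of endosomes and of the endoplasmic reticulum, differed from placebo by -0.18 to 0.10 in all 3 comparisons on their brightest probe sets.

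Syntaxin-binding proteins were represented by STXBP3 and STXBP6. STXBP6, or amisyn, binds syntaxin 1 and limits assembly of the fusion complex. Its brightest probe set read 9.22, 9.28 and 9.15 under placebo, 8.89, 9.24 and 9.04 under estrogen, 8.84, 8.68 and 8.86 under both hormones, and 9.57, 9.27 and 9.76 under progesterone. The combined-treatment arrays were the lowest of the 12, as for 0.614% of all probe sets, and differed from placebo by -0.42 ± 0.16 (SE, limma adjusted p = 0.999), from estrogen by -0.26 ± 0.16 (adjusted p = 0.9999, and -0.17 without the second estrogen array) and from progesterone by -0.74 ± 0.16 (adjusted p = 0.1497). The interaction was -0.58 ± 0.23 (adjusted p = 0.748). A second tested probe set did not follow it, with 6.93, 6.83 and 6.88 under both hormones and a difference from placebo of 0.25. STXBP3, the widely expressed Munc18 protein, differed from placebo by 0.13, 0.11 and 0.02 on its brightest probe set.

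The vesicle proteins SV2A, SV2B and SV2C, glycoproteins found on all neurosecretory vesicles, differed in how much they varied. SV2A, the widespread form, stayed between 10.95 and 11.51. SV2B read 9.67, 9.87 and 9.45 under placebo, 9.80, 9.96 and 10.10 under estrogen, 9.76, 9.71 and 9.44 under both hormones, and 9.51, 9.52 and 9.10 under progesterone. Estrogen exceeded the combined treatment without overlap, and the combined treatment differed from it by -0.32 ± 0.18 (SE, limma adjusted p = 0.9999); the F test over the groups gave SV2B an adjusted p of 0.660. SV2C, which marks basal ganglia and certain brainstem neurons, had the widest range of any tested member. It read 9.95, 9.68 and 9.53 under placebo, 7.99, 8.97 and 10.58 under estrogen, 10.49, 7.87 and 7.77 under both hormones, and 9.66, 10.10 and 8.40 under progesterone. Every group with a hormone held both high and low animals, and the differences from placebo of -0.54, -1.01 and -0.33 all had an SE of 0.76.

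Of the Rab3 proteins, RAB3A, the main Rab of synaptic vesicles, read 11.15, 10.97 and 11.17 under placebo, 11.14, 11.06 and 11.05 under estrogen, 11.16, 11.34 and 11.49 under both hormones, and 11.09, 10.90 and 10.87 under progesterone. The combined-treatment arrays lay above all arrays of either hormone alone, by 0.25 ± 0.14 (SE, limma adjusted p = 0.9999) over estrogen and 0.38 ± 0.14 (adjusted p = 0.345) over progesterone, and overlapped with placebo. RAB3B and RAB3D, forms found also in endocrine and secretory cells, differed from placebo by 0.0041 and 0.40 under estrogen, 0.06 and 0.38 under both hormones, and -0.16 and -0.18 under progesterone. All 3 were lower under progesterone than under both hormones, by 0.21 to 0.57.

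Priming factors were few. UNC13B, or Munc13-2, read 8.42, 8.36 and 8.20 under placebo and 7.54, 8.16 and 8.06 under estrogen, without overlap. The difference of -0.41 ± 0.19 (SE, limma adjusted p = 0.9997) was -0.22 without the first estrogen array. In estrogen against placebo 5 member probe sets did not overlap, 2 higher (background 3.56%) and 3 lower (3.98%), beside 7.54% of all in both directions. The higher ones were CPLX2, by 0.25 ± 0.14 (adjusted p = 0.9997, and 0.17 without the third placebo array), and NAPA. RIMS3, a short RIM protein, differed from placebo by 0.12, 0.17 and -0.16 on its brightest probe set, and UNC13D, the Munc13 of immune cell granules, by -0.07, 0.22 and 0.12. A dim RIMS3 probe set, below the filter and fitted without it, gave -0.71, -0.40 and -1.34 (limma adjusted p = 0.514 under progesterone). NAPA, the alpha-SNAP that recruits NSF, had a probe set on which both estrogen groups lay above all placebo arrays (8.93, 8.92 and 9.03 under placebo, 9.13, 9.30 and 9.09 under estrogen, 9.26, 9.14 and 9.18 under both hormones). The differences were 0.21 ± 0.14 (adjusted p = 0.9997) and 0.23 ± 0.14 (adjusted p = 0.999), while its brightest probe set gave -0.07 and 0.09. SYN2, a synapsin that ties vesicles to the cytoskeleton, and the synaptogyrins SYNGR2 and SYNGR4 differed from placebo by -0.11 to 0.14 in all 3 comparisons on their brightest probe sets.

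Over all roles, 5 member probe sets did not overlap between progesterone and placebo, beside 15.3% of all probe sets tested, with 2 higher (background 7.41%) and 3 lower (7.86%). Between both hormones and estrogen there were 7, beside 8.09%, with 4 higher (background 4.04%) and 3 lower (4.05%). Between both hormones and progesterone 12 did not overlap, beside 17%, with 10 higher under both hormones (background 8.4%) and 2 lower (8.6%). Where a gene had more than 1 tested probe set, 12 genes in all, its probe sets shared a direction for 8 genes in estrogen against placebo, for 4 in the combined treatment against placebo and for 7 in progesterone against placebo.

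The 17 dim probe sets, the ones below the filter, were examined without it. They stood for 12 genes, 7 of which (SNAP91, STX2, STX11, STXBP2, SYT9, SYT10 and SYT14) had no brighter probe set. None passed limma's test, and 2 of the 17 (11.8%) had an unadjusted p under 0.05 in the combined treatment against placebo, beside 4.29% of all 52766 probe sets in the same fit. There was 1 (5.88%) in progesterone against placebo (background 8.12%), in both hormones against estrogen (3.75%) and in the interaction (5.67%). There were 0 in estrogen against placebo (3.23%) and in both hormones against progesterone (8.97%). SNAP91, a clathrin adaptor of vesicle recycling which the rule took for its symbol, read 5.99, 5.72 and 6.08 under placebo and 6.62, 6.35 and 6.53 under both hormones, a difference of 0.57.

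Other genes of the release pathway gave 0 calls as well. Of 10 tested active zone and docking genes, such as PCLO, ERC1 and PPFIA3, 10 were lower under progesterone than under placebo (median log2 difference -0.32, from -0.92 for PPFIA3 to -0.0098 for DOC2A), where 56.2% of all genes were lower, and 1 had an unadjusted p under 0.05. Of 17 partners of the SNAREs and of Rab3, 7 were higher and 10 lower (median -0.04), of 21 genes of vesicle recycling 7 were higher and 14 lower (median -0.11), and the 4 tested transmitter transporters and ATPase subunits were lower (median -0.14). One of those, SLC18A2, is also a serotonin neuron marker. Under estrogen against placebo these 4 lists gave 7 of 10, 9 of 17, 14 of 21 and 1 of 4 genes higher, and under both hormones 7 of 10, 9 of 17, 9 of 21 and 1 of 4. With both hormones against progesterone alone, 8 of 10, 8 of 17, 11 of 21 and 3 of 4 were higher. In both hormones against estrogen they gave 5 of 10, 6 of 17, 7 of 21 and 2 of 4 higher.

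Cell type markers were read beside these values. General neuron markers split evenly under progesterone, with 5 of 10 higher than placebo (median -0.0033), and their summed intensity was 24760 to 29830 beside 25880 to 29990 under placebo. All 7 tested serotonin neuron markers were lower under progesterone than under placebo on the group mean (median -0.46, 0 called). Their summed intensity of 2313 to 2828, which the brightest genes weigh most, lay below that of all other arrays, 2954 to 4357. On the mean of the 7 log2 values the groups overlapped. The first progesterone array (8.302) lay above the first arrays of placebo (8.259) and estrogen (8.288) there. The summed ranges under progesterone and placebo were 23990 to 28320 and 25850 to 27870 for oligodendrocytes, 31590 to 33810 and 29270 to 32760 for astrocytes, and 5188 to 6248 and 4945 to 6912 for microglia. They were 950.2 to 1069 and 879.2 to 1337 for endothelium, 107.7 to 214.3 and 178.5 to 196.4 for ependyma and choroid plexus, and 2125 to 2317 and 1790 to 2069 for cerebellar neurons. The 3′ minus 5′ log2 signal of the EF1A control transcript, a measure of RNA and labelling quality, was -0.37 to -0.31 in the progesterone arrays and -0.08 to 0.74 in the others. The highest were the first arrays of estrogen (0.74) and of both hormones (0.65), with 0.22 next in the second estrogen array. The first placebo array was at -0.035. The same measure of actin leaned the other way but overlapped, with 0.66, 1.23 and 0.97 in the progesterone arrays and 0.11 to 0.90 in the others. That of GAPDH overlapped too (-0.09 to 0.39 and 0.11 to 0.89), and was highest in the first arrays of both hormones (0.89) and estrogen (0.61). The part of these differences in the values of CPLX2 and SYT3, or in the SYT1 probe sets that set the first arrays apart, was not tested.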

How the data were processed

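The authors deposited 1 linear intensity for each probe set; per the labels each chip is 1 monkey. The authors had scaled the arrays (mean without the lowest and highest 2%: 200.0 on each); which software did so was not stated in the labels. After removal of 99 control probe sets, values were floored at the 5th percentile (4.99), log2 transformed and quantile normalized, since array medians spanned 6.15 to 6.62. Probe sets with a mean at or above the median (log2 6.31) were tested with limma 3.58.1 in R 4.3.3: 1 mean per group over 12 arrays, two-sided, Benjamini-Hochberg over 26383 probe sets, threshold 0.05. The steps were tested on simulated data. Figures used matplotlib 3.10.9.

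Members, gene lists and rules were chosen with earlier results of these data known. The 22 named probe sets are a fixed panel of core genes, the 3 lowest p in each direction among members whose arrays did not overlap (for the interaction, the 3 lowest p in each direction), and the 5 lowest p of the F test; other members, SV2C and STX16 among them, were described after their values were seen. The 8 residual degrees of freedom limit precision, and an exact permutation test of 3 against 3 cannot go below 0.1. Gene symbols came from the platform annotation; probe sets with several symbols or none were not named.

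Same-numbered arrays deviated together (every correlation over 0.1) in estrogen plus progesterone with placebo (0.103 to 0.274) and with estrogen (0.142 to 0.507). In the other pairs of groups they did not. The correlations were 0.0242 to 0.277 for placebo with estrogen and -0.244 to -0.105 for placebo with progesterone. With progesterone they were -0.156 to 0.0298 for estrogen and -0.26 to -0.0803 for both hormones. The median was 0.027 for same-numbered and 0.0122 for unlike-numbered pairs, and 12 of 36 unlike-numbered pairs exceeded 0.1 too. Whether the numbers pair the arrays is thus not settled, and the main fit used no pairing. Other settings were median alignment, other filters and floors, fewer arrays, 1 probe set per gene and the replicate block.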

Additional observations from a re-analysis of the deposited data

Results flagged for a closer look

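STX5 was the one member probe set whose arrays moved in opposite directions under the same hormone with and without the other. Progesterone differed from placebo by -0.24, with its 3 arrays below every placebo array, and the combined treatment differed from estrogen by 0.61, with its 3 arrays above every estrogen array. Likewise estrogen differed from placebo by -0.51 and the combined treatment from progesterone by 0.34, again without overlap. Taken singly, these comparisons showed no overlap for 15.3%, 8.09%, 7.54% and 17% of all probe sets tested, in the order given. The share of all probe sets with the whole pattern is not given here, so the pattern cannot be called unusual. The test of the difference itself, limma's interaction, gave 0.85 ± 0.22 (SE) and an adjusted p of 0.678, so it did not pass. In the 12 fits that each left out 1 array the interaction lay between 0.71 and 0.93, and its adjusted p was never below 0.492. Groups of 3 are too small for the check on single outlying samples, which was not run.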

How the results depend on the processing

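No member probe set passed the threshold in any comparison under any setting tried: up to 20 alternatives each, among them the fits without each of the 12 arrays and the fit with the replicate block. The lowest adjusted p of a member was 0.0549, for CPLX2 in both hormones against progesterone with the filter at the 75th percentile. The replicate block changed no call of a member. The count over all probe sets in progesterone against placebo was 35, between 5 and 55 without 1 array, 20 with the replicate block and 13 without the first arrays of placebo, estrogen and both hormones, and 0 with only those groups or with each gene's brightest probe set alone; in both hormones against progesterone it was 22, 0 to 42 without 1 array, 7 with only those groups, 4 at the 75th percentile filter and 0 with the brightest alone. For the F test it was 20, 0 to 25 without 1 array, 13 with arrays aligned on their medians, 4 at the 75th percentile filter and 0 with the brightest alone. The interaction, at 0, gave 4 without the third placebo array and 2 without the first progesterone array. Each other comparison at 0 gave at most 1. The cause was not tested.

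Of 108 recomputed member medians, 95 moved by less than the spread between replicates (SD 0.041). The 95 include fits that cannot move a median: those with the replicate block, and those without an array of a group outside the comparison. Aligning arrays on their medians in place of quantile normalization shifted all genes in progesterone against placebo by -0.11; the member median became -0.19 there (beside -0.15 for all genes), -0.036 in both hormones against estrogen, 0.21 in both hormones against progesterone and 0.13 for the interaction. Without the first arrays of placebo, estrogen and both hormones the median of both hormones against estrogen was 0.073. Without 1 array, the median ranged from 0.0047 to 0.078 in both hormones against placebo, -0.13 to -0.024 in progesterone against placebo and 0.043 to 0.14 for the interaction.

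Of 1057 recomputed values of named probe sets and STX16, which was added after its values were seen, 29 turned sign, all in differences of panel genes or STX16 from placebo and none past the threshold. Many of the 1057 could not turn. Another filter, the replicate block, or leaving out an array of a group outside the comparison leaves a difference as it was. For probe sets named because their arrays did not overlap between groups, leaving out 1 array cannot turn the sign of that difference. The count is thus no measure of stability. With median alignment RAB3A under estrogen was 0.045 and VAMP2 -0.0064. Without the 3 first arrays VAMP2 was -0.95 under estrogen and -0.10 under both hormones, STX16 -0.14 and -0.058, and STX1A -0.032 under progesterone. Without 1 array, the ranges of differences from placebo were: under estrogen, RAB3A -0.075 to 0.022, VAMP2 -0.60 to 0.45, STX16 -0.094 to 0.67 and NAPA -0.19 to 0.079; under both hormones, CPLX2 -0.0073 to 0.15, SV2B -0.13 to 0.077, SYT1 -0.0035 to 0.12, STX16 -0.14 to 0.62 and NAPA -0.025 to 0.24; under progesterone, STX1A -0.032 to 0.39, VAMP2 -0.70 to 0.36 and NAPA -0.17 to 0.092. The 17 dim probe sets have low signal, and all comparisons rest on few animals. Why no member passed was not tested.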
